A study of Homo sapiens with 2 samples.

Results

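Lipid genes were examined in S2-013 cells, a human pancreatic cancer cell line, with and without a MEK inhibitor. The members are mainly enzymes and transfer proteins of phospholipid, fatty acid, sphingolipid and sterol metabolism, with 1 long non-coding RNA among them. They were chosen by the start of the gene symbol (ABHD, PLPP, PLA2G, PLD, LPCAT, AGPAT, DGK, ACSL, ACOX, ACAD, ELOVL, FADS, LPIN, CERS, SPTLC, SMPD, OSBP and STARD), and INSIG1, MSMO1, MVD, HMGCS1 and AACS were added by symbol. This gave 83 of 13763 named genes, 78 by prefix and 5 by symbol. Both groups were cells in which HOXB7, a homeobox transcription factor, had been knocked down and then re-expressed from a rescue plasmid. The group called MEK inhibitor then received such an inhibitor, and the group called no inhibitor did not. No source used here gives the inhibitor's name, dose or time. The arrays were made to look for factors and pathways that HOXB7 acts on through MEK, the kinase that activates ERK.

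Each group was 1 whole-transcript array of total RNA, so neither a replicate error nor a test exists for any value, and the number of arrays limits the precision. Values are the deposited levels, taken as log2, and a difference is always inhibitor minus no inhibitor. A gene was read further when the higher of its levels reached 4.78, the median that all named genes have when their arrays are averaged, called the floor here. It was reached by 57 of the 83 members and by 7164 of all named genes. In 161 genes with a second probe set above the floor, the difference read by the brightest and the next probe set had a median disagreement of 0.13, and its 95th percentile was 0.55. The central 95% of all 7164 differences ran from -0.69 to 0.72. A bulk array cannot tell fewer cells of a kind from less RNA per cell.

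Epithelial markers were present, with EPCAM at 10.5 in both arrays and KRT19 at 8.87 with and 8.94 without the inhibitor. All 7 named of the 12 duct and epithelial markers reached the floor on at least 1 array, and not all were level. SOX9, a duct cell transcription factor, was 2.37-fold lower with the inhibitor, and CLDN4, a claudin, was 1.94-fold higher. KRT18 read -0.29 in its brightest probe set and -0.66 in the other, at 6.88 with and 7.54 without the inhibitor. KRT8 read -0.19. KRT7 passed the floor only with the inhibitor, at 4.91 with and 4.56 without it (0.35). The part of such marker differences in the lipid values was not tested. The 3 named fibroblast markers and the 6 named adipocyte and hepatocyte markers lay below it in both arrays. Of 3 named leukocyte markers only CD68 reached it, at 8.53 with and 8.95 without the inhibitor. HOXB7 read 5.85 with and 5.84 without it. Of 9 named ERK feedback and ERK-driven genes, 8 were at least 2-fold lower with the inhibitor, against 1.05% of all genes. They were led by EGR1 (-2.94), SPRY4 (-2.15) and DUSP4 (-1.88). SPRY4, SPRY2, ETV4 and ETV5 were above the floor only without the inhibitor. DUSP5 read -1.13 in its brightest probe set and -0.13 in the other, which was below the floor.

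Cells build membranes from fatty acids that are first joined to coenzyme A, then attached to glycerol or a sphingoid base. Phosphatidic acid and diacylglycerol are the branch points of glycerolipid synthesis and also act as signals, and lipases and acyltransferases remodel the chains of finished phospholipids. Cholesterol synthesis runs from acetyl-CoA through mevalonate and is switched on by SREBP transcription factors when membrane sterol is low. INSIG proteins hold the SREBP escort SCAP in the endoplasmic reticulum when sterol is high.

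The promoters of the sterol members are shown first. INSIG1, MSMO1, MVD and HMGCS1, which were higher with the inhibitor, had been picked with earlier results known, and AACS read only -0.17. Whether any motif bears on these differences was not tested. SREBP is known to act beside NF-Y, a factor that binds CCAAT boxes. Each line gives the 250 bases before the annotated start site in RefSeq, build GRCh38.p14, 5′ to 3′ on the gene's strand. They lie at chr7:155297628-155297877 on the plus strand for INSIG1, chr4:165327419-165327668 on the plus strand for MSMO1, chr16:88663092-88663341 on the minus strand for MVD, chr5:43313413-43313662 on the minus strand for HMGCS1, and chr12:125065185-125065434 on the plus strand for AACS. HMGCS1 has 2 start sites in that table, and the first one listed was used. Capitals mark CCAAT on either strand (ATTGG when on the other strand) and the palindromic E-box CACGTG.
INSIG1: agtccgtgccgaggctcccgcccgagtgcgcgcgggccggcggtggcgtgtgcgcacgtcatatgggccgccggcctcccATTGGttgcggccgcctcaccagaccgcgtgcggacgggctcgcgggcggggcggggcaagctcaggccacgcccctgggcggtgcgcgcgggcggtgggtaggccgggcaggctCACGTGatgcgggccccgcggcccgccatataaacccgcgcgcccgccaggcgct
MSMO1: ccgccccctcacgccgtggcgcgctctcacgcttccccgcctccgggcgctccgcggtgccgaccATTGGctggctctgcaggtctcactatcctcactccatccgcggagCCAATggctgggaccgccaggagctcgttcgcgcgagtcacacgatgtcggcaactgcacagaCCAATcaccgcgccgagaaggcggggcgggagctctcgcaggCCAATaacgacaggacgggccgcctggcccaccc
MVD: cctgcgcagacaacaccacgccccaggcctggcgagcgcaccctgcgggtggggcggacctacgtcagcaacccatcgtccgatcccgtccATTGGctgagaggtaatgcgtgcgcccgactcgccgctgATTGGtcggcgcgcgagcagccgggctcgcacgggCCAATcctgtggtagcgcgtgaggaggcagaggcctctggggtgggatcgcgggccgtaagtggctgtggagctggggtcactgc
HMGCS1: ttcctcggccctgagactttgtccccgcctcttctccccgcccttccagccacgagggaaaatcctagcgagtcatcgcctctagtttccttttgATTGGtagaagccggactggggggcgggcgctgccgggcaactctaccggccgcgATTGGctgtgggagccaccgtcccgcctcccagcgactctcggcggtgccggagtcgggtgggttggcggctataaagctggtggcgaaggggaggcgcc
AACS: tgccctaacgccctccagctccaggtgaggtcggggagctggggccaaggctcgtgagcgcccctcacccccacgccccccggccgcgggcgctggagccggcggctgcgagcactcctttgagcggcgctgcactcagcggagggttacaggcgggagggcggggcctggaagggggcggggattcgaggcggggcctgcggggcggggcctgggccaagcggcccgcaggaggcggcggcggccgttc

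The CCAAT letters occurred once or more in 4 of the 5 windows. MSMO1 held 4 matches, MVD 3, HMGCS1 2, INSIG1 1 and AACS 0. CACGTG was found in INSIG1 alone of the 5, with its first base at position -55, where -1 is the last base before the start site. Among the windows of 27305 genes, 33.0% held CCAAT and 6.49% held CACGTG. These genes were not limited to protein-coding ones, while all 5 sterol members are protein-coding, so the shares compare unlike sets. Of the other sterol genes above the floor, 8 of 14 with a window held CCAAT, and of the other members above the floor 16 of 44 did. The GC box GGGCGG was found in all 5 windows, in 12 of the 14 other sterol genes, in 31 of the 44 other members and in 42.3% of all genes. The sterol response element core TCACNCCAC and the ETS site CCGGAAGT were in none of the 5, with shares of 0.875% and 3.64% over all genes. Each was in 1 of the 14 other sterol genes and in 0 of the 44 other members. With letters this rare, absence from 5 windows does not tell that a gene lacks such a site. All motifs were searched on both strands. These are matches of letters in one window and not binding sites.

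INSIG1, which holds back SREBP activation, had the largest difference of the sterol members. Its level was 9.37 with the inhibitor and 8.46 without it, 1.87-fold higher, and rank 68 from the top of 7164 genes. MSMO1, the methylsterol oxidase of the later pathway, read 9.51 with and 8.92 without the inhibitor, a difference of 0.59 that is just past 1.5-fold. MVD, which decarboxylates mevalonate diphosphate, read 7.89 with and 7.37 without it (0.51), and HMGCS1, which makes HMG-CoA, read 7.59 and 7.09 (0.50). AACS, a cytosolic enzyme that activates acetoacetate for lipid synthesis, went the other way, at 6.29 with and 6.45 without the inhibitor (-0.17). INSIG1, MSMO1, MVD and HMGCS1 had been seen as the top of a cholesterol list in earlier results of these data, so their direction follows from how they were chosen.

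**Figure D1:**
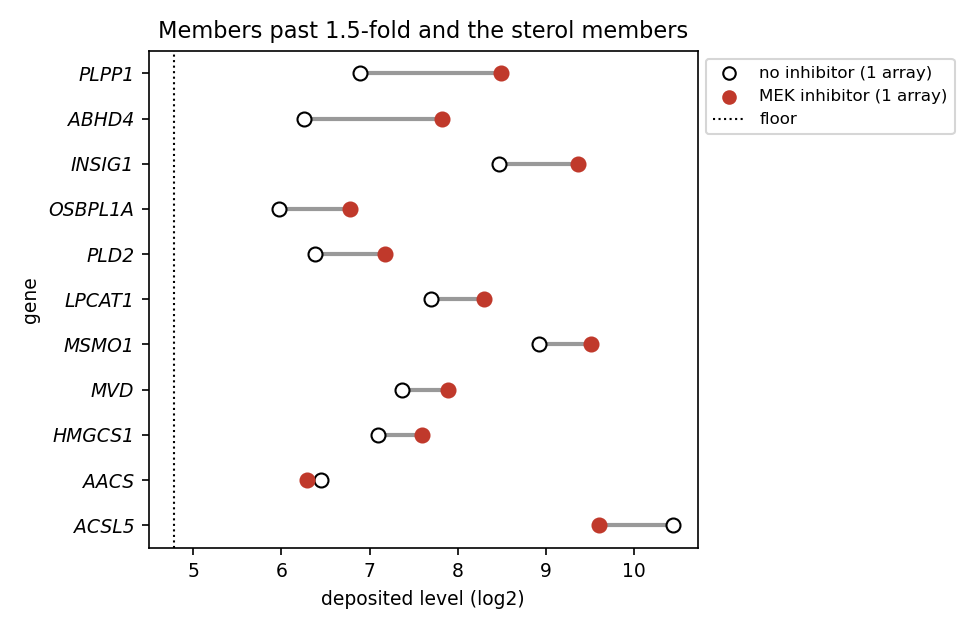
Deposited log2 level (x axis) of the 8 members past 1.5-fold and of the other sterol members, 1 gene per row, on the array without (open circles) and with the MEK inhibitor (filled circles). The dotted line is the floor of 4.78. PLPP1 and ABHD4 show the widest gaps, ACSL5 and AACS are the rows in which the inhibitor array is lower, and every point lies above the floor.

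A list of 27 further genes of sterol synthesis and SREBP control could be read in part: 18 were named here and 16 of these were above the floor. Of the 16, 13 were higher and 3 lower, where 53.9% of all 7164 genes were higher. The median was 0.17 against 0.03 over all genes, and none of the 16 was 1.5-fold higher. The largest positive difference was that of ERG28, a scaffold of sterol demethylation (0.41), followed by the acetoacetyl-CoA thiolase ACAT2 (0.35). SQLE, the squalene epoxidase, read 0.26, DHCR7, the last reductase, 0.17, and the regulators SREBF2, SCAP and INSIG2 read 0.25, 0.09 and 0.21. SREBF1 read -0.15. LBR, a sterol reductase that is also the lamin B receptor of the inner nuclear membrane, was 1.80-fold lower, at 9.40 with and 10.3 without the inhibitor. TM7SF2, the other sterol reductase of that step, read -0.35. FDPS, the farnesyl diphosphate synthase, read 0.14 in its brightest probe set and 0.47 in the other. Among genes of sterol uptake, storage and efflux 4 were named here, and VLDLR, a lipoprotein receptor, was the only one of them past 1.5-fold (0.61). The receptor LRP1 read 0.53 and started below the floor, MYLIP, a ligase that degrades lipoprotein receptors, read 0.10, and the cholesterol acyltransferase gene SOAT1 read -0.04.

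Across all members above the floor, 31 (54.4%) were higher and 25 lower, against 53.9% of all 7164 genes higher, and ELOVL6 had the same deposited value in both arrays. The median difference was 0.06. At least 1.5-fold higher were 7 members, 12.3% of the 57, against 4.62% of all genes, and 1 member (1.75%) was at least 1.5-fold lower against 3.6% of all genes. When the median difference of all genes was subtracted, MSMO1 (0.56) and LPCAT1 (0.58) fell short of 1.5-fold and 5 members remained past it. At 2-fold, PLPP1 and ABHD4 were higher and no member was lower, against 0.628% of all genes higher and 1.05% lower. The share of higher members rests on genes already known from earlier results. Without the 5 genes picked by symbol and without PLPP1 and ABHD4, 3 of 50 members (6.0%) were 1.5-fold higher, which is near the share of all genes, and the median was 0.00. A size below 0.13, the median disagreement of probe sets, was read in 20 of the 57, and 9 had a size above 0.55, its 95th percentile. The 9 include PLPP1, ABHD4, INSIG1 and MSMO1. These sizes were not counted over all genes, so neither count is a result about the members. Disagreement of probe sets on the same arrays does not measure variation between cultures.

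**Figure D2:**
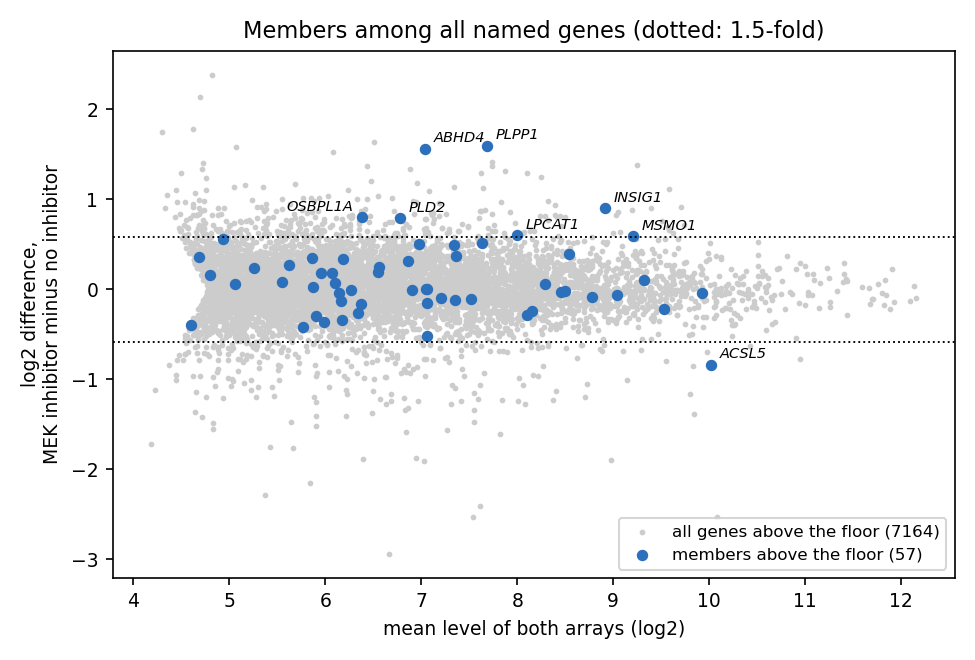
Difference between the arrays (y axis, log2) against the mean level of both arrays (x axis, log2) for 7164 named genes above the floor (grey) and the 57 members among them (blue). Dotted lines mark 1.5-fold. PLPP1 and ABHD4 stand among the highest differences at their levels, ACSL5 is the member below the lower line, and the other members lie inside the grey cloud.

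Among the ABHD hydrolases and the phospholipase gene PLD2, ABHD4 had the highest difference. Of 12 such genes above the floor 9 were higher and 3 lower, with a median of 0.19, where 53.9% of all genes were higher and the median was 0.03. The group's median was 0.09 without the filter on low values and 0.28 with the 75th percentile filter. ABHD4, which removes acyl chains from N-acyl phosphatidylethanolamines, read 7.82 with the inhibitor and 6.26 without it. This is 2.96-fold higher, rank 8 from the top. PLD2, which cuts phosphatidylcholine to phosphatidic acid, read 7.17 with and 6.39 without the inhibitor, 1.73-fold higher. It is the sole PLD gene named here. ABHD15 read 5.21 with and 4.65 without the inhibitor, just short of 1.5-fold (0.56), and it passed the floor only with the inhibitor.

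ABHD3, a lipase of phosphatidylcholines with shorter acyl chains, read 7.54 with and 7.17 without the inhibitor (0.37), and ABHD12, a lysophosphatidylserine lipase, 6.36 and 6.01 (0.34). The lowest of the family was ABHD6, a monoacylglycerol lipase, at 5.56 with and 5.97 without the inhibitor (-0.41). ABHD5, the coactivator of the triglyceride lipase PNPLA2, was almost level at 6.26 and 6.27. The other 5 members above the floor, ABHD2, ABHD8, ABHD10, ABHD13 and ABHD14B, ran from -0.15 (ABHD10) to 0.19 (ABHD13). ABHD1, ABHD11, ABHD12B and ABHD16B lay below the floor in both arrays. Only 15 ABHD genes were named here, of 22 protein-coding ones in RefSeq. The family's median over 11 genes was 0.18, with ABHD4 at 1.56. It was 0.12 without ABHD4 and 0.06 without the filter on low values.

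Other lipases are no members. Of 13 above the floor, 10 were higher and 3 lower, with a median of 0.21. Over all genes 53.9% were higher and the median was 0.03. MGLL, the main monoacylglycerol lipase, was 2.05-fold higher, at 6.55 with and 5.51 without the inhibitor, while ABHD6, which hydrolyses the same substrate, was lower. PNPLA4 read 0.52. PNPLA2 read 0.45 in its brightest probe set and 0.04 in the other. NAPEPLD, which acts on the same N-acyl phospholipids as ABHD4, read 0.25, and FAAH, which degrades the resulting fatty acid amides, 0.03.

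Enzymes that make and convert phosphatidic acid and remodel phospholipids were evenly split, 6 higher and 6 lower of 12 above the floor, with a median of -0.02. PLPP1, a membrane phosphatase that turns phosphatidic acid into diacylglycerol and dephosphorylates lysophosphatidic acid, had the highest difference of any member. It read 8.49 with the inhibitor and 6.89 without it, 3.03-fold higher, rank 6 of 7164 genes. The other 4 PLPP genes above the floor ran from -0.06 to 0.25. PLPP2, the paralog with the same activity, read 9.01 with and 9.07 without the inhibitor, PLPP5 7.06 and 7.05, PLPP6 6.13 and 6.06, and the catalytically inactive relative PLPPR2 6.69 and 6.44. PLPP3, the third classical lipid phosphate phosphatase, lay below the floor at 4.33 and 4.46, as did PLPP4, PLPP7, PLPPR1, PLPPR3, PLPPR4 and PLPPR5.

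The lipins, which carry out the same step on phosphatidic acid from the cytosol, had no shared direction. LPIN1 read 5.81 with and 6.17 without the inhibitor (-0.36), LPIN3 6.10 and 6.22 (-0.12), and LPIN2 5.76 and 5.48 (0.28). Among acyltransferases of lysophospholipids, LPCAT1, which makes saturated phosphatidylcholine, read 8.30 with and 7.70 without the inhibitor, 1.52-fold higher and close to the threshold. LPCAT3, which adds polyunsaturated chains, read 9.91 and 9.95, LPCAT4 6.13 and 6.17, and LPCAT2, which also makes platelet-activating factor, 6.21 and 6.48 (-0.26). LPCAT1 is thus the single LPCAT gene above 0. The AGPAT prefix matched only AGPAT4-IT1, a long non-coding RNA from within AGPAT4, at 3.73 and 3.38, below the floor.

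Outside the members, 24 further genes of glycerolipid synthesis and lipid droplets above the floor had 11 higher and 13 lower, with a median of -0.02. The share of all genes that were higher was 53.9%. PEMT was counted there only through the inhibitor array, at 4.81 with and 4.56 without the inhibitor. CDS1, which converts phosphatidic acid to CDP-diacylglycerol, read 7.63 with and 6.96 without the inhibitor, 1.59-fold higher, and was the only gene of that list past 1.5-fold. Its paralog CDS2 read 0.21. GPD1L read 0.50, MBOAT1 -0.35, and the lipid droplet coat gene PLIN2 -0.02. LCLAT1, a lysophospholipid acyltransferase, read 0.38 and CDIPT, which joins CDP-diacylglycerol to inositol, 0.37.

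ACSL5 was the only member at least 1.5-fold lower. It encodes a long-chain acyl-CoA synthetase of mitochondria and endoplasmic reticulum, and read 9.60 with the inhibitor and 10.4 without it. This is 1.78-fold lower, rank 120 from the bottom. ACSL4, the paralog that prefers arachidonate, was nearly level at 8.44 and 8.47, and ACSL1 read 6.04 with and 5.69 without the inhibitor (0.34). ACSL6 lay below the floor.

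Fatty acid elongases and desaturases stayed within 1.5-fold above the floor. ELOVL5, which elongates polyunsaturated chains, read 8.74 with and 8.34 without the inhibitor (0.40), and ELOVL7 7.02 and 6.71 (0.31). ELOVL1, the elongase of very long saturated chains, read 9.43 and 9.64 (-0.22). ELOVL6, which elongates palmitate, read 7.06 in both. ELOVL4 had a difference of 0.65 but lay below the floor on both arrays, at 4.65 with the inhibitor, and no detection call was used. FADS1, a desaturase of polyunsaturated fatty acids, read 6.01 with and 6.34 without the inhibitor (-0.34), and FADS3 5.59 and 5.51. FADS2, the desaturase that acts before FADS1, lay below the floor. Over the 9 acyl-CoA synthetases, elongases and desaturases above the floor, 4 were higher, 4 lower and ELOVL6 level.

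Genes that make fatty acids, which are no members, also read close to 0. FASN read -0.14, ACLY -0.03, ACACA 0.13 and SCD, the stearoyl-CoA desaturase, 0.04, and 9 genes of that list had a median of 0.04. Its largest differences were those of the acyl-CoA synthetase gene ACSF2 (0.62), FABP5 (-0.42), which ended below the floor, and ACSF3 (-0.32). The members of fatty acid oxidation could hardly be read, since ACOXL alone was named here and lay below the floor at 2.21 and 2.72. Of 15 other fatty acid oxidation genes above the floor, 13 were higher and 2 lower, with a median of 0.24, where 53.9% of all genes were higher. HADH was counted there only through the inhibitor array, at 5.04 with and 4.73 without the inhibitor. ECI2, an enoyl-CoA isomerase, read 5.70 with and 5.05 without the inhibitor (0.65), the peroxisomal thioesterase gene ACOT8 5.85 and 5.21 (0.64), and ACOT13 0.46. CPT1A, the gate of mitochondrial import, read 0.07. CPT2 read 0.22, and -0.20 in its other probe set, which was below the floor.

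**Figure D3:**
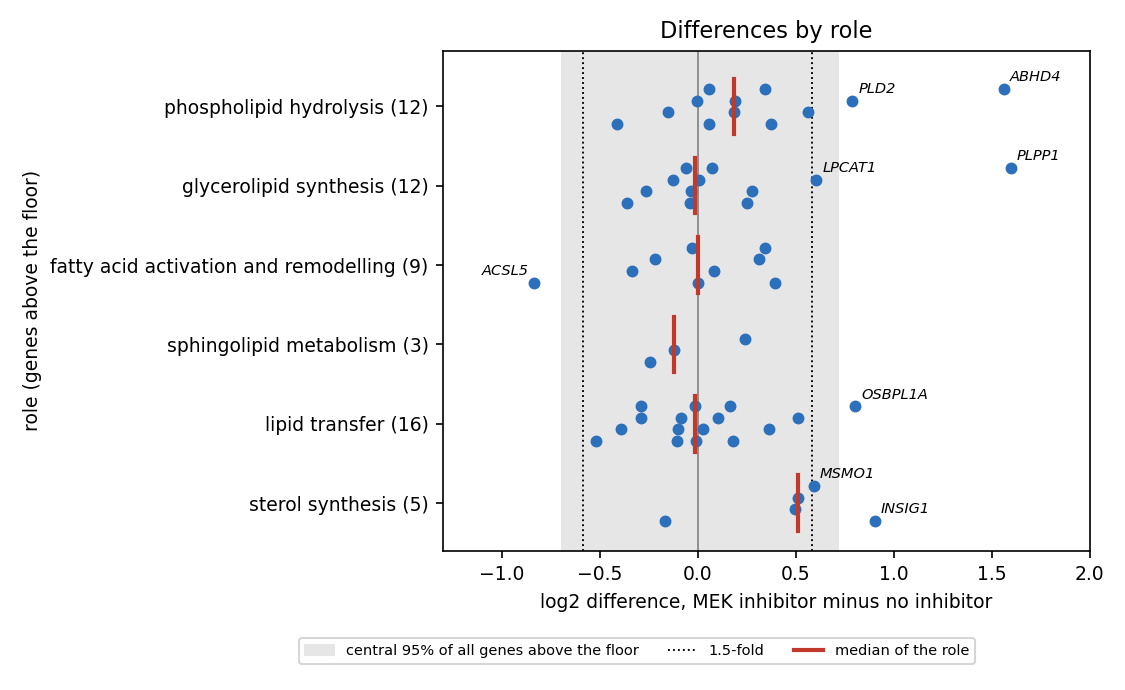
Difference between the arrays (x axis, log2) for the 57 members above the floor, 1 point per gene, by role. The red bar is the median of the role, the grey band the central 95% of all 7164 genes, and dotted lines mark 1.5-fold. The sterol median (0.51) is no finding, since INSIG1, MSMO1, MVD and HMGCS1 were picked with earlier results of these data known. Among the 57 members, 5 lie above the band and 1 below it, where the band holds 95% of all genes by definition. The 5 include PLPP1, ABHD4 and INSIG1, known from earlier results, so their count is no finding either.

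Ceramide synthases differed little. CERS6 read 8.03 with and 8.28 without the inhibitor (-0.24), CERS2, which makes ceramides of very long chains, 7.29 and 7.41 (-0.12), and CERS5 5.38 and 5.14 (0.24). The other probe set of CERS2 read 0.02 and that of CERS6 -0.14. CERS3 and CERS4 lay below the floor. Larger differences stood elsewhere in sphingolipid metabolism, in genes that are no members. UGCG, which adds glucose to ceramide, was 1.88-fold higher, at 10.2 with and 9.25 without the inhibitor. ASAH1, the acid ceramidase, was 1.82-fold higher, at 8.06 and 7.19. SGPL1, the sphingosine phosphate lyase, read 0.47 and ORMDL2, an inhibitor of serine palmitoyltransferase, 0.46, while the alkaline ceramidase gene ACER2 read -0.50. Over 20 such genes 13 were higher and 7 lower, where 53.9% of all genes were higher. Their median was 0.16, or 0.04 without the filter on low values.

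Genes of the OSBP and STARD families, grouped as lipid transfer by symbol alone, were split. Of 16 above the floor 7 were higher and 9 lower, with a median of -0.01. OSBPL1A, an oxysterol-binding protein homolog of late endosomes, read 6.78 with and 5.98 without the inhibitor, 1.74-fold higher, rank 120 from the top. OSBPL9, which acts at the Golgi, read 7.23 and 6.72 (0.51). OSBPL3 was the lowest, at 6.81 with and 7.32 without the inhibitor (-0.52), followed by OSBPL10 (-0.39), which ended below the floor. OSBPL8, which moves phosphatidylserine to the plasma membrane, read 7.96 and 8.25 (-0.29). OSBP itself, which carries cholesterol to the Golgi, was level at 8.49 and 8.50.

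In the STARD family, STARD5, a sterol-binding protein, read 4.86 with and 4.50 without the inhibitor (0.37), starting below the floor. STARD10, a phospholipid carrier, read 5.75 and 6.05 (-0.29). STARD7, which brings phosphatidylcholine to mitochondria, read 9.37 and 9.27, STARD4, a sterol carrier whose gene is an SREBP target, 7.46 and 7.57 (-0.11), and STARD3, the late endosomal sterol carrier, 7.16 and 7.26. The difference of STARD4 was smaller in size than the median disagreement of probe sets. STARD9 had 4 probe sets, all below the floor, with differences from -0.09 to 0.26. STARD6, STARD8 and STARD13 also lay below it.

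**Figure D4:**
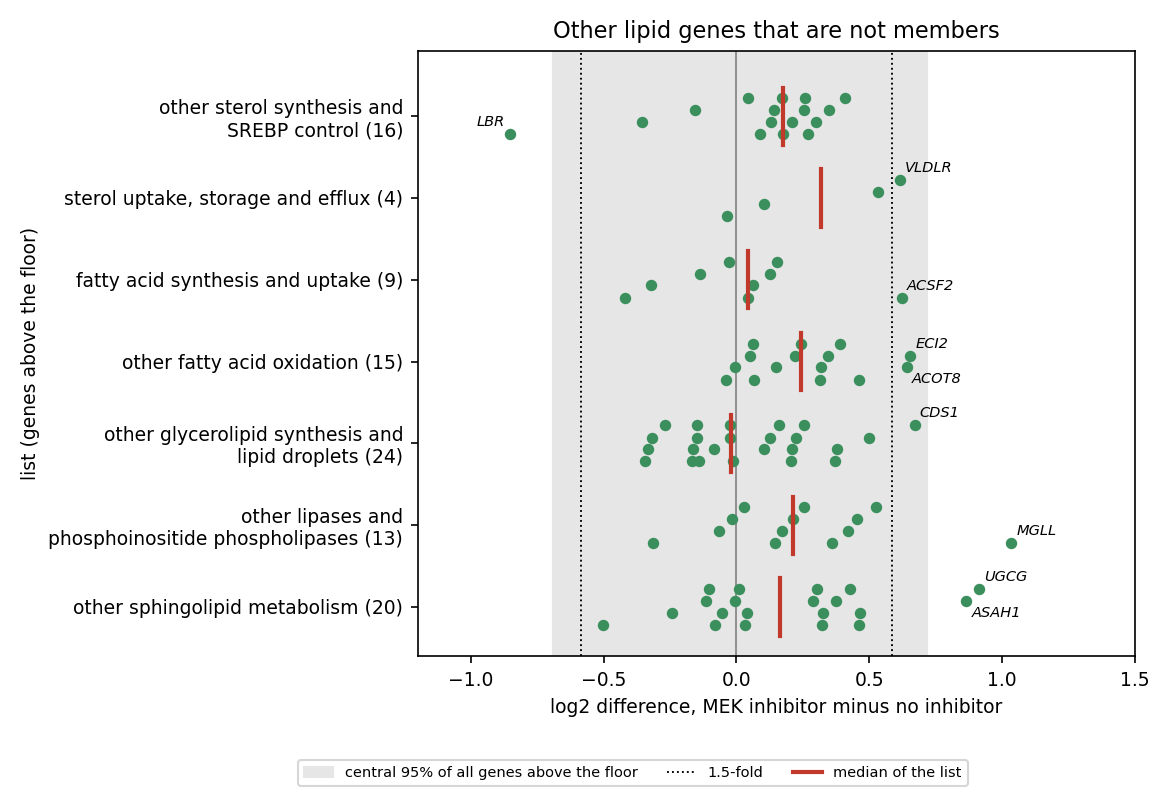
Difference between the arrays (x axis, log2) for lipid genes that are not members, by list, 1 point per gene above the floor. The red bar is the median of the list, the grey band the central 95% of all 7164 genes, and dotted lines mark 1.5-fold. MGLL, UGCG and ASAH1 lie above the band and LBR below it, and most genes of sterol synthesis and of fatty acid oxidation lie to the right of 0.

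Of the 18 prefixes, 13 matched a gene named here, and PLA2G, DGK, ACAD, SPTLC and SMPD matched none and were not analysed here. Some other families were named only in part. Of their protein-coding genes in RefSeq, 15 of 22 were named for ABHD, 4 of 5 for ACSL and 5 of 6 for CERS. For FADS 3 of 4 were named, for PLD 1 of 6 and for ACOX 1 of 4. The 26 members below the floor had levels from 1.80 (STARD6) to 4.74 (PLPP7), with 14 higher and 12 lower, and ELOVL4 was the only one of them past 1.5-fold. Of the 57 above it, ABHD15, OSBPL7, OSBPL10 and STARD5 were above the floor on only 1 array. None of the 8 members past 1.5-fold had a second probe set, so the disagreement between probe sets could not be measured for them.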

How the data were processed

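Total RNA of both groups was hybridised to Affymetrix whole-transcript arrays, 1 array per group, and samples were grouped by their titles. The authors deposited summarised values by probe set; that these are log2 values is inferred from their range, 1.16 to 13.4. Affymetrix Expression Console 1.3 made them, per the submitters' processing notes, and its settings are not known from the sources used here. The medians of the arrays were 3.46 with and 3.49 without the inhibitor, so values were used as deposited. If quantiles were equalised, a difference in the amount of RNA per culture cannot be seen, and array summaries compress large folds.

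The platform annotation names 1 gene for 16098 of 53617 probe sets and several for none; 37519 are unnamed here. Of those named, 1287 with symbols starting MIR or SCARNA were kept apart. The probe set with the highest mean stood for each gene. All 83 members were found by Entrez identifier in the RefSeq table of GRCh38.p14, with the same symbol. Promoter windows were matched by symbol for 73 members, and PLPP1 was not among them. TATAAA was commonest 30 and 29 bases before the start for plus and minus strand genes, so windows were read along the gene.

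No test was run. Differences were called at 1.5-fold or 2-fold, and medians were given for 3 or more genes. The members, lists and motifs were chosen with earlier results of these data known. Named were all members past 1.5-fold, each family's highest and lowest, the 5 genes chosen by symbol, the 5 members with the highest mean level, up to 3 genes per list by size of difference, and members whose probe sets differ in sign. Other genes were named after their values were seen. Counting was tested on simulated data. Alternatives were subtraction of the median difference or a loess trend (fraction 0.3), no filter, a 75th percentile filter (6.45), averaged or second brightest probe sets, 3-fold, and leaving out members. Python 3.11.15, numpy 2.4.6, pandas 2.3.3, statsmodels 0.14.6 and matplotlib 3.10.9 were used.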

Additional observations from a re-analysis of the deposited data

How the results depend on the processing

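No paired analysis was possible because the design has 1 array per condition, which also bars leaving out an array. No member past 1.5-fold changed its direction under any alternative run, but none could have. None of them had a second probe set, filters change no value, and the subtractions were far smaller than their differences. Subtracting the median difference moved every member by 0.03, and subtracting the loess trend moved members by up to 0.09. The former took MSMO1 (0.56) and LPCAT1 (0.58) below 1.5-fold and turned PLPP5 to -0.02; the latter turned PLPP5 to -0.03 and STARD3NL to -0.02. Without the filter 8 members, ELOVL4 added, were 1.5-fold higher and the median of lipid transfer genes was 0.06, that of ABHD genes with PLD2 0.09 and that of ABHD genes 0.06. With the 75th percentile filter (35 members) 18 members were higher and 16 lower, and of all genes 153 were 1.5-fold higher, 147 were 1.5-fold lower and 24 were 2-fold higher, since fewer genes were counted; the median of the other lipases was then 0.36. At 3-fold, 1 member was higher and 0 were lower. Without ELOVL5 the median of the ELOVL family was 0.00. With the second brightest probe set CERS2 read 0.02. Leaving out the 7 genes picked by symbol or named in earlier results, an alternative chosen after seeing the data, left 3 members 1.5-fold higher. No detection call was used, so whether a member below the floor was above background is unknown.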
